A study of Caenorhabditis elegans with 24 samples.

Results

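The difference that DAF-16 makes in *C. elegans* muscle cells was compared between the low and the high insulin/IGF-1 signaling (IIS) states. For each gene, the high IIS difference (wild-type minus *daf-16(lf)*) was taken from the low IIS difference (*daf-2(lf)* minus *daf-16(lf); daf-2(lf)*), both on log2(TPM + 1), where TPM is the length-normalised abundance of a transcript scaled to a fixed library total. This difference of differences is called the interaction: it is above 0 where the presence of DAF-16 went with more of a transcript at low IIS than at high IIS, and below 0 where it went with less. It used 14 muscle cell libraries of the 24 libraries in the series, and 24 of 14717 genes tested passed at an adjusted p under 0.05 (limma, Benjamini-Hochberg).

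Every animal carried a transgene that labels body wall muscle cells with GFP. Muscle cells were the GFP-positive, propidium iodide-negative cells sorted from dissociated young adults, and all cells were the propidium iodide-negative cells with no GFP gate. At low IIS, *daf-2(lf)* (3 libraries) carried a temperature-sensitive allele of *daf-2*, the insulin/IGF-1 receptor gene, and *daf-16(lf); daf-2(lf)*, the double mutant (3 libraries), carried it together with a *daf-16* deletion allele. At high IIS, wild-type (4 libraries) had no mutation beyond the transgene and *daf-16(lf)* (4 libraries) carried the deletion. *daf-2(lf)* and double mutant larvae were held at the permissive temperature until L4 and then shifted, whereas wild-type and *daf-16(lf)* animals stayed at the higher temperature throughout, so the *daf-2* mutation and the rearing temperature cannot be told apart in the interaction. A pair of library kits was used in the series and the labels do not assign them to libraries.

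In *C. elegans*, insulin-like peptides act on the DAF-2 receptor, and the kinase cascade below it keeps the FOXO transcription factor DAF-16 in the cytosol. When the receptor is impaired, DAF-16 enters the nucleus and changes the transcription of genes for stress defence, metabolism and longevity. Body wall muscle is a large tissue of the worm that both responds to IIS and makes insulin-like peptides.

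The *daf-16* transcripts listed at 0 in all *daf-16(lf)* and double mutant libraries summed to 19.8 to 38 TPM in muscle cells of *daf-2(lf)*, and 2.58 to 3.89 TPM in wild-type muscle cells, as the muscle cell labels give them. The pair of all cells libraries with a wild-type label held none of them, and enters the interaction only through the estimate of the spread. These 2 libraries correlated at 0.797 with each other, and without them 30 genes passed instead of 24. Body wall muscle markers (10 genes, *myo-3* and *unc-54* among them) summed to 35694 to 44711 TPM in *daf-2(lf)*, 32295 to 37607 TPM in the double mutant, 66164 to 97166 TPM in wild-type and 53733 to 104813 TPM in muscle cells of *daf-16(lf)*, against 4787 to 5700 TPM in all cells at low IIS and 50360 to 99383 TPM in all cells at high IIS, whose levels are not used. The median gene had an SD of 0.27 in *daf-2(lf)*, 0.47 in the double mutant, 0.28 in wild-type and 0.34 in *daf-16(lf)* muscle cells on log2(TPM + 1). Replicate 4 was the library least correlated with the others in wild-type and in *daf-16(lf)* muscle cells (mean r of 0.942 and 0.906).

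Of the 24 genes that passed, which are 0.163% of those tested, 16 were raised (interaction above 0; 0.109% of genes tested) and 8 were lowered (0.0544%). Among all genes, 760 (5.16%) had an unadjusted p under 0.05, 184 raised (1.25%) and 576 lowered (3.91%), and the median interaction was -0.19, with 68.2% of genes below 0. The split of the 24 moved with the scaling. Quantile normalization gave 35 genes, of which 27 were raised (77.1%, against 66.7% without it), and median-of-ratios scaling gave 27, of which 22 were raised (81.5%). The 16 raised genes had a median interaction of 3.18 and the 8 lowered genes one of -2.35.

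Among the genes that passed, most of the interaction lay on the low IIS side. In 23 of the 24 genes the high IIS difference was at most 0.5 in size, and the exception was *C04F5.8*. Over all genes tested, 6.54% had a high IIS difference larger than 0.5, so a small one does not set the 24 genes apart. Some of them, such as *hsp-12.6* and *F56C3.10*, were at or near 0 TPM in both high IIS groups, where the scale leaves little room for a difference. The *daf-2(lf)* and double mutant muscle cell libraries did not overlap for any of the 24 genes, as was the case for 12.4% of all genes. The wild-type and *daf-16(lf)* libraries did not overlap for 1 of the 24, against 1.20% of all genes. These shares use the same libraries as the test and describe the genes only.

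**Figure D1:**
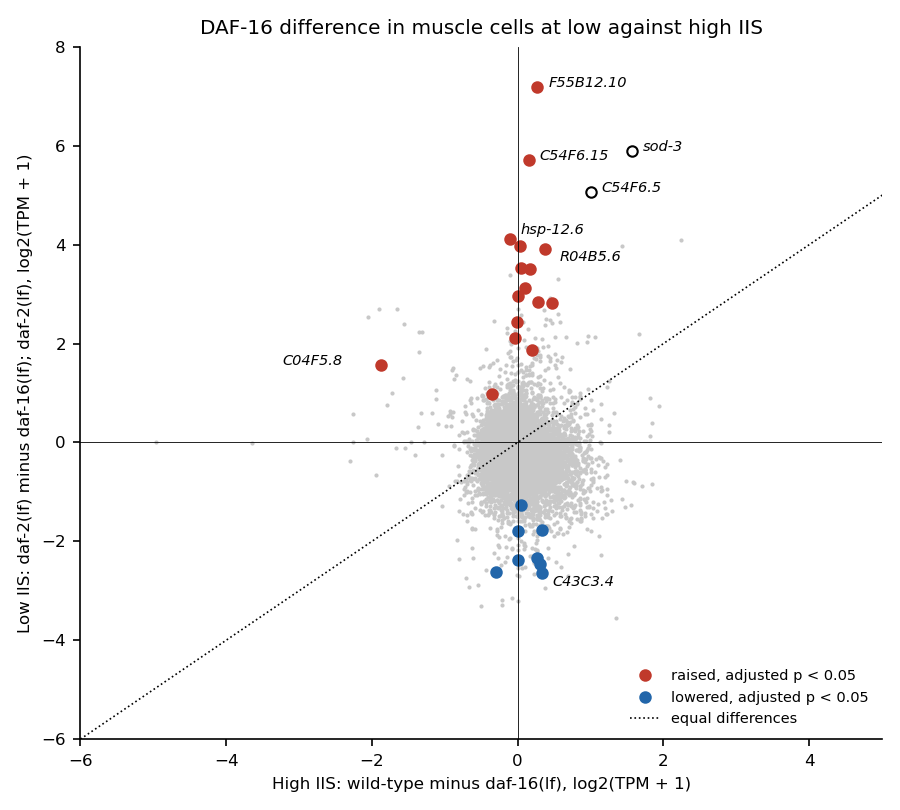
Each point is 1 of the 14717 genes tested, with its high IIS difference (wild-type minus *daf-16(lf)*) on the x axis and its low IIS difference (*daf-2(lf)* minus double mutant) on the y axis, both on log2(TPM + 1); red and blue points passed the interaction test, and open points are the 2 genes just outside the threshold. The 24 genes lie far above or below the dotted line of equal differences and, apart from *C04F5.8* at a high IIS difference of -1.88, close to 0 on the x axis.

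The 4 muscle cell groups did not always split in the same way. In 13 raised genes the group farthest from the mean of the other 3 was *daf-2(lf)*, which was higher. In 2 raised genes, *R119.3* and *R04B5.6*, it was the double mutant, which was lower, and in *C04F5.8* it was wild-type, which was lower. Among the lowered genes, *daf-2(lf)* was the lower outlying group in 3 and the double mutant the higher one in 5. These are muscle cell averages, in which fewer expressing cells and less RNA per cell cannot be told apart.

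Of 60 antioxidant and detoxification genes tested 2 were raised, *sod-5* and *gst-31*, as were 2 of 13 small heat shock protein genes, *hsp-12.6* and *F08H9.4*, against 0.109% of all genes. *sod-5*, which encodes a cytosolic copper/zinc superoxide dismutase, had 16.3, 7.04 and 11.7 TPM in muscle cells of *daf-2(lf)*, and 0.116, 0.0384 and 0.0488 TPM in the double mutant. It had 0.184, 0.409, 0.193 and 0.866 TPM in wild-type and 0, 0.141, 0.0444 and 0.942 TPM in *daf-16(lf)*. The 3 *daf-2(lf)* libraries were all above the other 11, and the wild-type and *daf-16(lf)* libraries overlapped. The interaction of *sod-5* was 3.33 (SE 0.41, 95% interval 2.49 to 4.18, adjusted p = 0.000231), with a difference of 3.50 at low IIS and 0.17 at high IIS.

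*hsp-12.6*, a small heat shock protein gene and a known DAF-16 target, had 107, 4.65 and 28.4 TPM in muscle cells of *daf-2(lf)*, and 0.190, 0.188 and 1.44 TPM in the double mutant. It was listed at 0 in all 4 wild-type libraries and in 3 of the 4 *daf-16(lf)* libraries, the other holding 0.355 TPM. The 3 *daf-2(lf)* libraries were above all others but differed widely among themselves. The interaction of *hsp-12.6* was 4.22 (SE 0.83, adjusted p = 0.0382), and it passed in 3 of the 14 fits that each left out 1 muscle cell library, those without double mutant replicate 3 (adjusted p = 0.0436), without *daf-2(lf)* replicate 1 (0.0498) and without *daf-2(lf)* replicate 2 (3.63e-05). In the other 11 fits its adjusted p was 0.0596 to 0.103, and it was 0.101 with a replicate block at high IIS.

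*F08H9.4*, another small heat shock protein gene, had 10.8, 4.48 and 14.2 TPM in muscle cells of *daf-2(lf)*, and 0.0636, 0.378 and 0 TPM in the double mutant. It had 0.720 to 1.32 TPM in wild-type and 0.552 to 1.30 TPM in *daf-16(lf)*. The double mutant libraries were below every *daf-16(lf)* library, so at low IIS the gene was higher with DAF-16 and, without it, lower than at high IIS. The interaction of *F08H9.4* was 3.02 (SE 0.48, adjusted p = 0.00564), and it did not pass at a pseudocount of 0.1 (adjusted p = 0.0525). The annotation places it on the same strand as *srz-97*, whose span overlaps it, and reads shared by such genes may be split between them.

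*gst-31*, a glutathione S-transferase gene, had 3.66, 3.97 and 4.93 TPM in muscle cells of *daf-2(lf)*, and 0.197, 0.584 and 0.446 TPM in the double mutant. It had 0.435 to 0.678 TPM in wild-type and 0 to 1.18 TPM in *daf-16(lf)*. The *daf-2(lf)* libraries stood above the other 11. The interaction of *gst-31* was 1.68 (SE 0.33, adjusted p = 0.0337), and it passed in 5 of the 14 fits without 1 library, its adjusted p ranging between 0.0241 and 0.101, and 0.6 at a pseudocount of 0.1.

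**Figure D2:**
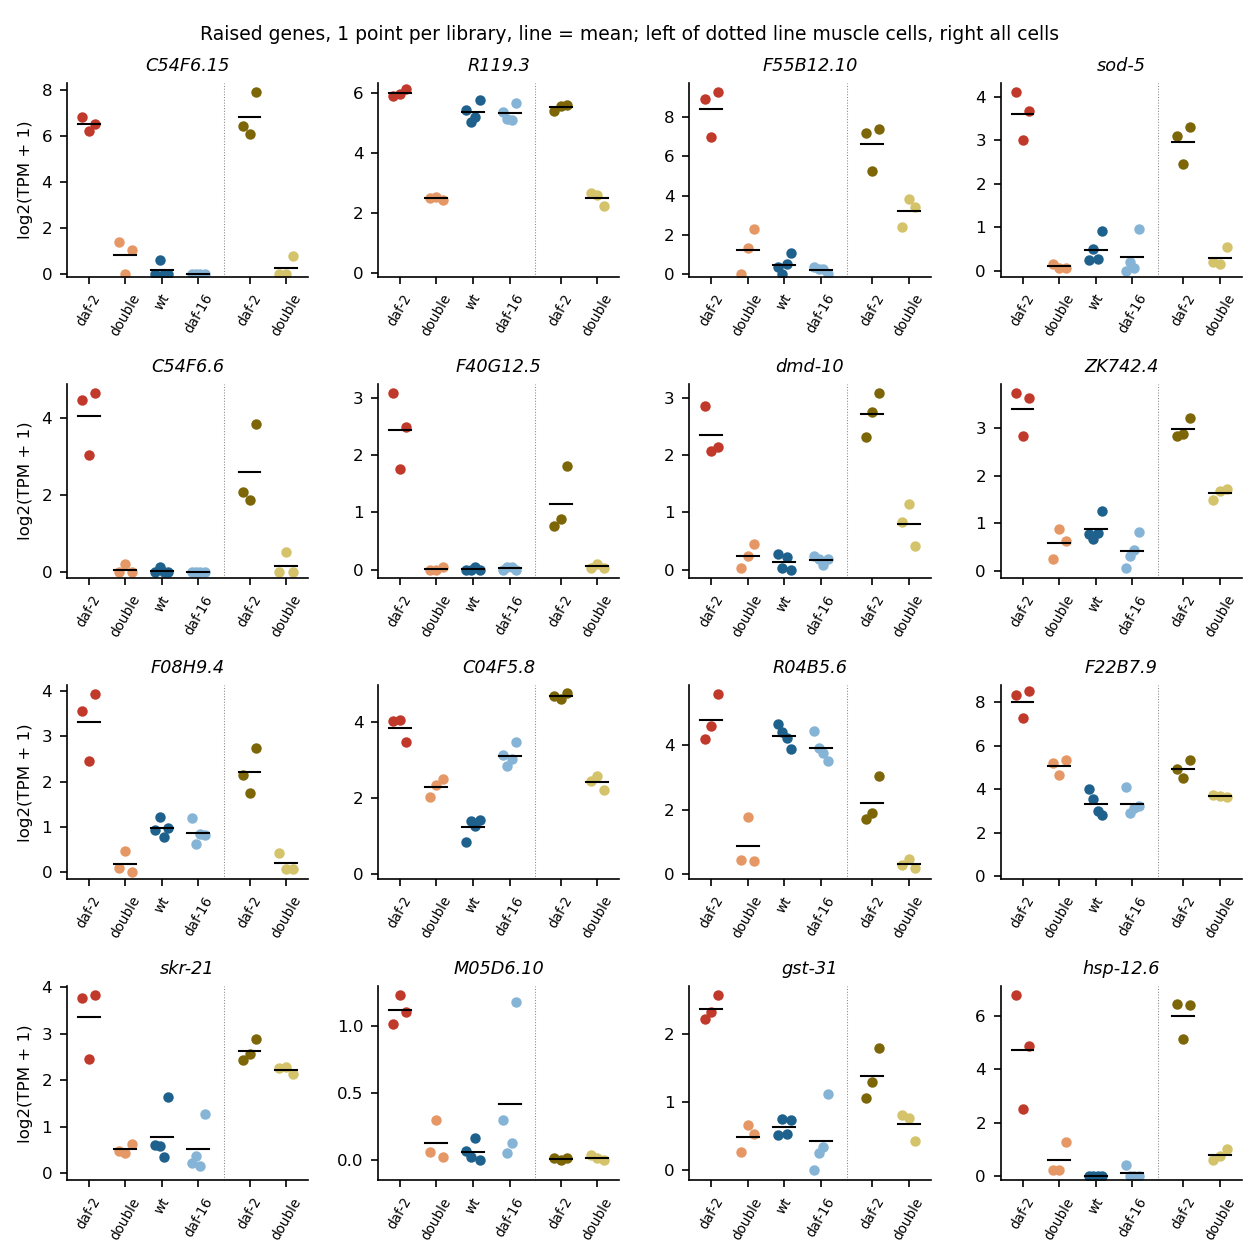
Each panel shows 1 raised gene, with log2(TPM + 1) on the y axis and, from left to right, *daf-2(lf)*, double mutant, wild-type and *daf-16(lf)* in muscle cells, then *daf-2(lf)* and double mutant all cells; points are libraries and lines are means. *daf-2(lf)* muscle cells are the highest of the muscle cell groups in most panels, the double mutant is the lowest in *R119.3* and *R04B5.6*, and wild-type is the lowest in *C04F5.8*.

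The largest interactions belonged to 2 genes without a named product. *F55B12.10* (chromosome V, 13839733 to 13840491 in WBcel235, 2 exons) had 488, 125 and 619 TPM in muscle cells of *daf-2(lf)*, and 0, 1.53 and 3.90 TPM in the double mutant. It had 0 to 1.08 TPM in wild-type and 0 to 0.277 TPM in *daf-16(lf)*. Its interaction of 6.92 (SE 0.82, 95% interval 5.21 to 8.63, adjusted p = 0.000198) was the largest of all genes tested. In all cells *F55B12.10* held 147, 36.9 and 166 TPM in *daf-2(lf)* and 4.27, 13 and 9.68 TPM in the double mutant, so the low IIS difference was 3.40 there, against 7.19 in muscle cells.

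*C54F6.15* (chromosome V, 7521900 to 7522379, 2 exons, minus strand) had 114, 73.1 and 90.1 TPM in muscle cells of *daf-2(lf)*, and 1.62, 0 and 1.02 TPM in the double mutant. It was listed at 0 in all high IIS muscle cell libraries but wild-type replicate 2, which had 0.527 TPM. The interaction was 5.57 (SE 0.54, adjusted p = 1.46e-05). *C54F6.6*, which starts at 7523692 on the plus strand, had 21.2, 7.17 and 24 TPM in muscle cells of *daf-2(lf)*, and 0, 0.155 and 0 TPM in the double mutant. It too was at 0 in the high IIS libraries apart from 0.0946 TPM in wild-type replicate 2, and its interaction was 3.95 (SE 0.52, adjusted p = 0.000563).

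These genes lie beside *C54F6.5*, which encodes a secreted protein (chromosome V, 7529116 to 7529450). *C54F6.5* fell just outside the threshold, with an interaction of 4.07 (SE 0.84, adjusted p = 0.0513). Without the wild-type-labelled all cells pair, *C54F6.5* passed (adjusted p = 0.00372). It had 1258, 301 and 897 TPM in muscle cells of *daf-2(lf)*, and 12, 15.3 and 41.6 TPM in the double mutant. At high IIS it had 2.24, 1.86, 2.84 and 2.44 TPM in wild-type and 1.34, 0.195, 0.550 and 0.773 TPM in *daf-16(lf)*. The wild-type libraries were all above the *daf-16(lf)* libraries, so the high IIS difference was 1.00 and the low IIS difference 5.07. Of 17 genes that start within 20 kb of the start of *C54F6.5*, itself included, 9 were tested. Against 0.163% of all genes tested, 2 of the 9 passed, the *C54F6.15* and *C54F6.6* already described. The neighbours *C54F6.18* (interaction 1.07, unadjusted p = 0.0988), *C54F6.17* (0.91, unadjusted p = 0.322) and *C54F6.20* (-0.65, unadjusted p = 0.54) did not. These neighbours were named after their values were seen. At the far end of the window, *ftn-1*, a ferritin gene and known DAF-16 target, had an interaction of 1.96 (SE 0.55, unadjusted p = 0.00182, adjusted p = 0.362).

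*R119.3* (chromosome I, 373571 to 379073) had the smallest standard error among the interactions above 3. It had 59.3, 61.3 and 69.4 TPM in muscle cells of *daf-2(lf)*, and 4.66, 4.69 and 4.36 TPM in the double mutant. At high IIS it had 42.4, 31.9, 35.7 and 52.9 TPM in wild-type and 40.4, 34.3, 33.5 and 49.3 TPM in *daf-16(lf)*. The gene was thus abundant in both high IIS genotypes and in *daf-2(lf)*, and low in the double mutant alone. The interaction of *R119.3* was 3.49 (SE 0.35, 95% interval 2.77 to 4.21, adjusted p = 1.46e-05). Its span overlaps *pqn-59* on the same strand. All cells showed the same order at low IIS, with 41, 46.5 and 46.9 TPM in *daf-2(lf)* and 5.29, 5.06 and 3.67 TPM in the double mutant.

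*R04B5.6* (chromosome V, 10085164 to 10087363) had a like shape with more spread. It had 17.2, 23.5 and 47.4 TPM in muscle cells of *daf-2(lf)*, 0.354, 2.44 and 0.334 TPM in the double mutant, 13.7 to 24.1 TPM in wild-type and 10.5 to 21 TPM in *daf-16(lf)*. The *daf-2(lf)* and wild-type libraries overlapped, and the double mutant libraries lay below all others. Its interaction was 3.54 (SE 0.64, adjusted p = 0.0183), and the call was lost without double mutant replicate 3 (adjusted p = 0.078), without *daf-2(lf)* replicate 3 (0.0809) and without wild-type replicate 4 (0.055). The adjacent *R04B5.5* had 54.6, 40.5 and 51.6 TPM in *daf-2(lf)*, 13.8, 23.2 and 29.7 TPM in the double mutant, 4.72 to 9.42 TPM in wild-type and 6.26 to 11.1 TPM in *daf-16(lf)*, with an interaction of 1.48 (SE 0.66, unadjusted p = 0.0363) that did not pass after adjustment.

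*C04F5.8* (chromosome V, 5111518 to 5113754) was the one gene of the 24 whose libraries were apart at both IIS states, in opposite directions. It had 15.3, 15.6 and 10.1 TPM in muscle cells of *daf-2(lf)*, and 3.06, 4.07 and 4.62 TPM in the double mutant. It had 0.795, 1.64, 1.4 and 1.68 TPM in wild-type and 7.70, 6.10, 7.09 and 10.1 TPM in *daf-16(lf)*. The groups did not overlap at either IIS state, with a difference of 1.57 at low IIS and -1.88 at high IIS, and the interaction was 3.45 (SE 0.60, adjusted p = 0.0141). *C04F5.8* passed in all 14 fits without 1 library. It did not pass at a pseudocount of 0.1 or without replicate 4 of both high IIS groups, where its adjusted p was 0.25 and 0.0563.

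The remaining raised genes were low in abundance in most groups. *dmd-10*, which encodes a DM-domain transcription factor, had 6.23, 3.21 and 3.40 TPM in muscle cells of *daf-2(lf)*, at most 0.365 TPM in the double mutant, at most 0.211 TPM in wild-type and at most 0.178 TPM in *daf-16(lf)*. Its interaction was 2.15 (SE 0.31, adjusted p = 0.00183). *F40G12.5* had 7.50, 2.39 and 4.60 TPM in muscle cells of *daf-2(lf)*, and at most 0.0328 TPM in any other muscle cell library, with an interaction of 2.44 (SE 0.33, adjusted p = 0.000654). *ZK742.4* had 12.4, 6.18 and 11.4 TPM in *daf-2(lf)*, 0.191 to 0.835 TPM in the double mutant, 0.601 to 1.4 TPM in wild-type and 0.0483 to 0.764 TPM in *daf-16(lf)*. Its interaction was 2.35 (SE 0.37, adjusted p = 0.00456), which did not pass at a pseudocount of 0.1 (adjusted p = 0.375). The span of *ZK742.4* overlaps *xpo-1* on the other strand, and reads of such a pair cannot be told apart where a library keeps no strand.

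*F22B7.9* was more abundant, with 324, 153 and 362 TPM in muscle cells of *daf-2(lf)*, and 35.6, 24.3 and 39.8 TPM in the double mutant. It had 5.93 to 15 TPM in wild-type and 6.42 to 16.4 TPM in *daf-16(lf)*. Double mutant libraries were thus above those of both high IIS genotypes, and *daf-2(lf)* libraries higher again. The interaction was 2.97 (SE 0.55, adjusted p = 0.0221). The call for *F22B7.9* was lost without double mutant replicate 2, *daf-2(lf)* replicate 1, *daf-2(lf)* replicate 3, wild-type replicate 3 or wild-type replicate 4 (adjusted p of 0.0699, 0.0892, 0.0924, 0.0637 and 0.061), and under median-of-ratios scaling (0.0548).

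*skr-21*, a Skp1-related gene of the ubiquitin ligase adaptor family, had 12.7, 4.53 and 13.3 TPM in muscle cells of *daf-2(lf)*, 0.358 to 0.553 TPM in the double mutant, 0.271 to 2.12 TPM in wild-type and 0.125 to 1.44 TPM in *daf-16(lf)*. Its interaction was 2.57 (SE 0.49, adjusted p = 0.0286), and 5 of the 14 fits without 1 library kept the call, with an adjusted p of 0.0025 to 0.109 over the 14 and of 0.277 at a pseudocount of 0.1. The pseudogene *M05D6.10* had 1.02, 1.35 and 1.15 TPM in muscle cells of *daf-2(lf)*, and 0.0437, 0.231 and 0.0183 TPM in the double mutant, near the filter of 1 TPM. It was at 1.26 TPM in *daf-16(lf)* replicate 4, as high as in *daf-2(lf)*, and its interaction was 1.34 (SE 0.25, adjusted p = 0.0286), which held in 6 of the 14 fits without 1 library (adjusted p up to 0.111).

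**Figure D3:**
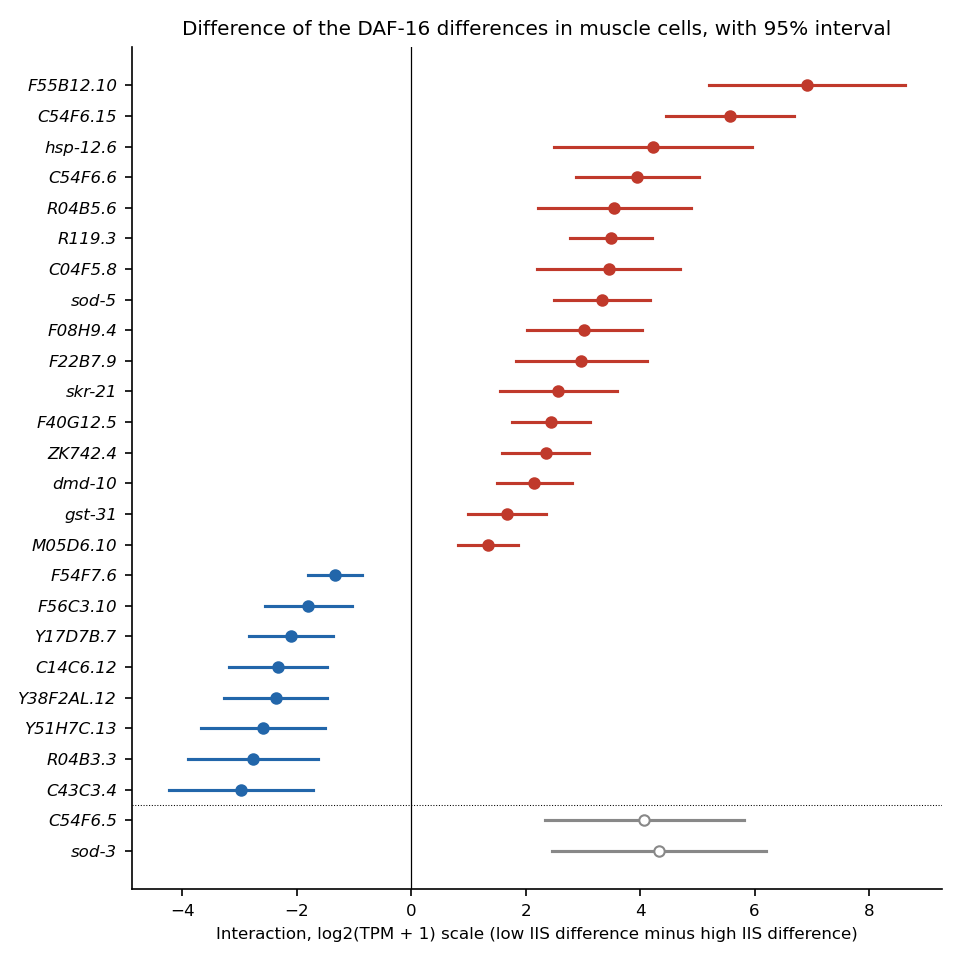
Interaction of each gene on the log2(TPM + 1) scale (x axis) with its 95% interval from limma; filled red points are the 16 raised genes, filled blue points the 8 lowered genes, and open grey points the 2 genes just outside the threshold. The estimates run from -2.98 for *C43C3.4* to 6.92 for *F55B12.10*, and *C54F6.5* and *sod-3* have intervals that are wide but lie above 0.

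The threshold passed between genes with nearly equal statistics. The last gene inside was *C43C3.4* (adjusted p = 0.0466), and the first outside were *C54F6.5* (0.0513) and *sod-3* (0.0526). *sod-3*, the gene of a mitochondrial manganese superoxide dismutase and a standard DAF-16 reporter whose span overlaps *C08A9.3* and *lido-1* on the other strand, had 221, 75.6 and 207 TPM in muscle cells of *daf-2(lf)*, and 1.05, 1.71 and 2.04 TPM in the double mutant. It had 2.64, 4.16, 2.65 and 5.22 TPM in wild-type and 0.0908, 0.971, 0.814 and 0.417 TPM in *daf-16(lf)*. Both IIS states had *sod-3* higher with DAF-16 and with no overlap, by 5.89 at low IIS and 1.57 at high IIS, so the interaction was 4.32 (SE 0.89). Of 27 alternative settings, *C54F6.5* passed in 7 (adjusted p up to 0.403) and *sod-3* in 6 (up to 0.375). Those of *sod-3* were both scalings (0.022 and 0.0267), the fit of muscle cells alone (0.00396), array weights (1.7e-06), the fit without the wild-type-labelled all cells pair (0.000557) and that without *daf-2(lf)* replicate 2 (0.03).

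Below these, *gstk-2*, a glutathione S-transferase kappa gene, had 29.6, 22.9 and 29.2 TPM in *daf-2(lf)*, 5.71, 4.89 and 6.80 TPM in the double mutant, 1.76 to 2.74 TPM in wild-type and 1.54 to 4.92 TPM in *daf-16(lf)* muscle cells. Its interaction of 2.16 (SE 0.47, adjusted p = 0.0978) did not pass, nor did that of *dhs-9*, a short-chain dehydrogenase gene (1.96, SE 0.44, adjusted p = 0.112). *cex-1*, the gene of the calcium-binding protein calexcitin, had 599, 724 and 993 TPM in *daf-2(lf)* and 114, 212 and 215 TPM in the double mutant, against 95.5 to 124 TPM in wild-type and 85.7 to 97.8 TPM in *daf-16(lf)*. Its interaction was 1.88 (SE 0.44, adjusted p = 0.142). *mlcd-1*, the gene of malonyl-CoA decarboxylase, had an interaction of 1.44 (SE 0.50, adjusted p = 0.597).

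None of the 8 lowered genes has a role described here. The most abundant of the 8 in muscle cells was the pseudogene *Y17D7B.7* (chromosome V, 18780490 to 18782605). It had 249, 352 and 307 TPM in muscle cells of *daf-2(lf)*, and 982, 1195 and 919 TPM in the double mutant. It had 3937, 3094, 2030 and 3965 TPM in wild-type and 2870, 3032, 2426 and 1868 TPM in *daf-16(lf)*. The low IIS libraries were all below the high IIS libraries, and *daf-2(lf)* was below the double mutant, so the interaction was -2.10 (SE 0.35, adjusted p = 0.0102). The call for *Y17D7B.7* was lost under median-of-ratios scaling (-1.89, adjusted p = 0.338).

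The pseudogene *C14C6.12* (chromosome V, 570571 to 571205) had a like order, although the double mutant and wild-type overlapped, with 5.84, 6.70 and 2.93 TPM in muscle cells of *daf-2(lf)*, 32.7, 31.4 and 44.2 TPM in the double mutant, 42.2 to 60.1 TPM in wild-type and 53.6 to 79.7 TPM in *daf-16(lf)*. Its interaction was -2.33 (SE 0.41, adjusted p = 0.0153), and it lost the call without double mutant replicate 3 (adjusted p = 0.0648) or *daf-2(lf)* replicate 3 (0.0687), and under median-of-ratios scaling (0.105). *R04B3.3* (chromosome X) had 5.31, 2.46 and 1.66 TPM in *daf-2(lf)* and 17.3, 13.4 and 35.5 TPM in the double mutant, against 10.7 to 17.5 TPM in wild-type and 9.67 to 14.1 TPM in *daf-16(lf)*. Its interaction was -2.77 (SE 0.55, adjusted p = 0.0382). *R04B3.3* passed without double mutant replicate 1 (0.0463), double mutant replicate 2 (0.0312) or *daf-2(lf)* replicate 1 (0.0243), and its adjusted p was up to 0.157 in the other 11 fits without 1 library and 0.0878 with a replicate block at high IIS.

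In the other 5 lowered genes the double mutant was the group that stood apart, with low values in the rest. *Y38F2AL.12* was listed at 0 in the 3 *daf-2(lf)* muscle cell libraries and had 4.86, 4.82 and 3.06 TPM in the double mutant. It was at 0 in 3 of 4 wild-type and 3 of 4 *daf-16(lf)* libraries, the others holding 0.278 and 0.279 TPM. Its interaction was -2.37 (SE 0.43, adjusted p = 0.0183), lost without *daf-16(lf)* replicate 2 (0.0517), double mutant replicate 2 (0.0526), *daf-2(lf)* replicate 3 (0.0687) or wild-type replicate 2 (0.0639), under quantile normalization (0.115) and with a replicate block at high IIS (0.0508). *F54F7.6* had 0, 0.0860 and 0.327 TPM in *daf-2(lf)* and 1.87, 1.17 and 2.27 TPM in the double mutant, with at most 0.204 TPM in wild-type and at most 0.0682 TPM in *daf-16(lf)*. Its interaction was -1.33 (SE 0.23, adjusted p = 0.0114). The call for *F54F7.6* was lost under quantile normalization (-1.14, adjusted p = 0.271) and median-of-ratios scaling (0.0651), at a pseudocount of 0.1 (0.084) and with no abundance trend (0.0594).

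*Y51H7C.13* had 1.25, 0.745 and 1.19 TPM in muscle cells of *daf-2(lf)*, and 3.85, 11.7 and 16.8 TPM in the double mutant, against 0 to 1.18 TPM in wild-type and 0.0244 to 0.196 TPM in *daf-16(lf)* (interaction -2.59, SE 0.52). *C43C3.4* had 0, 0 and 1.32 TPM in *daf-2(lf)* and 10.9, 4.04 and 8.56 TPM in the double mutant, against 0 to 0.984 TPM in wild-type and 0 to 0.197 TPM in *daf-16(lf)* (interaction -2.98, SE 0.61). *F56C3.10* had 0, 0.369 and 0 TPM in *daf-2(lf)* and 1.08, 3.58 and 5.01 TPM in the double mutant, and was at 0 in every high IIS muscle cell library (interaction -1.80, SE 0.36). All 3 had an adjusted p of 0.0466 and most fits without 1 library lost the call. *Y51H7C.13* passed in 1 of the 14, without double mutant replicate 1 (0.00162). *C43C3.4* passed in 2, without double mutant replicate 2 (0.0312) or *daf-2(lf)* replicate 3 (0.0273), and *F56C3.10* passed in 2, without double mutant replicate 1 (0.000844) or *daf-2(lf)* replicate 2 (0.0335). Their adjusted p reached 0.162, 0.212 and 0.185 in these fits, and was 0.0878, 0.107 and 0.12 with a replicate block at high IIS. With no filter on abundance it was 0.0628, 0.102 and 0.087. *F56C3.10* reached the filter of 1 TPM only in the 3 double mutant muscle cell libraries, so it entered the test through the group where it was high. Its lack of overlap follows from that and is no evidence. Outside *daf-2(lf)* muscle cells, *F40G12.5* reached 1 TPM only in *daf-2(lf)* all cells replicate 3 (2.49 TPM). *M05D6.10* did so only in *daf-16(lf)* muscle cells replicate 4 (1.26 TPM). Outside double mutant muscle cells, *F54F7.6* reached it only in double mutant all cells replicate 1 (1.07 TPM). These genes too entered the test through their high group, so their lack of overlap at low IIS is no evidence either.

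Some of these genes were more abundant in all cells than in muscle cells. *Y51H7C.13* had 120.0, 60.7 and 95.2 TPM in *daf-2(lf)* all cells and 145, 97.1 and 103 TPM in double mutant all cells, with no difference that passed (-0.35, SE 0.40). *Y38F2AL.12* had 16.6, 31 and 43.5 TPM in *daf-2(lf)* all cells and 38, 22.8 and 15.2 TPM in double mutant all cells, and *C43C3.4* had 15.9, 18.5 and 25.5 TPM and 10, 19.1 and 3.64 TPM. Sperm markers (39 genes), 0 of which passed, had overlapping sums in muscle cells of 131 to 871 TPM in *daf-2(lf)* and 313 to 2755 TPM in the double mutant, against 131 to 708 TPM in wild-type and 24.5 to 504 TPM in *daf-16(lf)*. Neuron markers (15 genes) summed to 127 to 146 TPM in *daf-2(lf)*, 147 to 318 TPM in the double mutant, 106 to 190.3 TPM in wild-type and 65.4 to 171 TPM in *daf-16(lf)*. The highest sums of both lists were in double mutant libraries, and their part in the lowered genes was not tested.

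**Figure D4:**
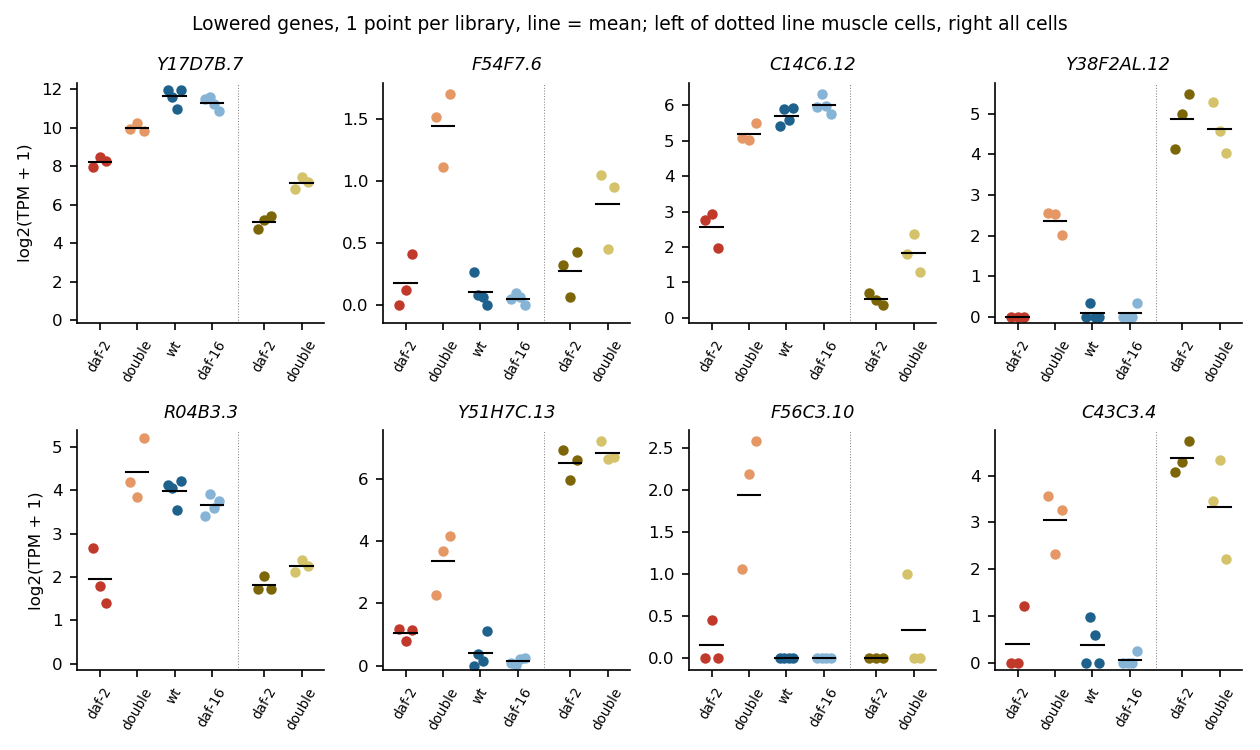
Each panel shows 1 lowered gene, with log2(TPM + 1) on the y axis and, from left to right, *daf-2(lf)*, double mutant, wild-type and *daf-16(lf)* in muscle cells, then *daf-2(lf)* and double mutant all cells; points are libraries and lines are means. The double mutant is above *daf-2(lf)* in the muscle cells of every panel, and *Y38F2AL.12*, *Y51H7C.13* and *C43C3.4* have means in all cells of both low IIS genotypes above that of double mutant muscle cells.

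The low IIS difference was also taken in all cells. Those libraries hold muscle cells too and may come from the same dissociations as the muscle cell libraries, so they are not independent of them. There, 14 of the 24 genes had a *daf-2(lf)* minus double mutant difference in the direction of their interaction (adjusted p under 0.05), against 2.43% of all genes in either direction, and 0 had one in the other direction. Among raised genes, 12 of 16 were higher in *daf-2(lf)* all cells (1.72% of all genes), led by *C54F6.15* (difference 6.55, SE 0.40) and *hsp-12.6* (5.19, SE 0.63). *hsp-12.6* had 85.9, 33.9 and 84.0 TPM in *daf-2(lf)* all cells and 0.524, 0.711 and 1.02 TPM in the double mutant. The raised genes that did not pass there were *F22B7.9* (1.25, SE 0.42), *gst-31* (0.70, SE 0.25), *skr-21* (0.40, SE 0.37) and *M05D6.10* (-0.01, SE 0.19). *skr-21* had 4.39, 4.92 and 6.38 TPM in *daf-2(lf)* all cells and 3.80, 3.87 and 3.41 TPM in the double mutant. Among lowered genes, 2 of 8 were lower in all cells of *daf-2(lf)* (0.713% of all genes), and these were the pseudogenes *Y17D7B.7* (-2.04, SE 0.27) and *C14C6.12* (-1.30, SE 0.31). Whether muscle cells and all cells differ in the low IIS difference was not tested, and the interaction was not taken in all cells because of the *daf-16* values in the wild-type-labelled pair.

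Of 27 known targets raised by DAF-16 that were tested, *sod-5* and *hsp-12.6* passed and 5 had an unadjusted p under 0.05, all raised, where 1.25% of all genes did so. Their median interaction was 0.70 (0.40 without double mutant replicate 3), against -0.19 over all genes (-0.03 without that library). Known targets lowered by DAF-16 (12 tested) had a median of -0.35, and *ins-7* (-0.52, unadjusted p = 0.0497) was the only one with an unadjusted p under 0.05. *ins-7* was near the floor, with at most 0.526 TPM in any muscle cell library, and both low IIS groups had libraries at 0. Small heat shock protein genes (13 tested) had a median of 0.76 with 2 passing, *F08H9.4* and *hsp-12.6*, but the median was -0.05 without double mutant replicate 3. At an unadjusted p under 0.05, 3 were raised (23.1%) and 1 was lowered (7.69%), against 1.25% and 3.91% of all genes. The lowest interaction in the list was -1.89. *hsp-12.3*, named for its place beside *hsp-12.6*, had 116, 7.95 and 30.1 TPM in *daf-2(lf)* and 3.12 to 5.36 TPM in the double mutant, against 4.27 to 94.8 TPM in wild-type and 5.16 to 51.1 TPM in *daf-16(lf)*, and its interaction of 2.05 (SE 1.33) did not pass. Other chaperones (24 tested) had a median of 0.48 with none passing, *hsp-70* having the largest value at 1.99 (SE 0.60, unadjusted p = 0.00317).

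In the antioxidant and detoxification list, 2 of 60 genes passed, *sod-5* and *gst-31*. At an unadjusted p under 0.05, 6 were raised and 3 lowered, against 1.25% and 3.91% of all genes. The median of the list was 0.11, and -0.06 without double mutant replicate 1, where that of all genes was -0.19 and -0.41. The IIS pathway itself had 0 of 25 genes passing. *pdk-1*, the kinase that activates AKT, had 8.19, 4.03 and 8.01 TPM in *daf-2(lf)*, 1.19 to 1.45 TPM in the double mutant, 0.383 to 1.62 TPM in wild-type and 0.425 to 1.57 TPM in *daf-16(lf)*, with an interaction of 1.69 (SE 0.39, adjusted p = 0.13). *akt-2* had 21.7, 13.8 and 16.2 TPM in *daf-2(lf)* and 5.67, 6.19 and 9.32 TPM in the double mutant, with an interaction of 1.08 (SE 0.42, adjusted p = 0.759). Of 31 insulin-like peptide genes tested none passed, and the median was -0.11. At an unadjusted p under 0.05, 3 were raised (9.68%) and 4 lowered (12.9%), against 1.25% and 3.91% of all genes. Among them, *ins-35* (3.50, SE 0.91, adjusted p = 0.27) and *ins-27* (1.00, SE 0.43, unadjusted p = 0.0294) had high values while *ins-17* (-1.46, SE 0.53, unadjusted p = 0.0116) had a low one. *daf-16* and *daf-2* themselves had interactions of 0.10 (SE 0.49) and -0.05 (SE 0.51), whose signs turned under other settings.

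Of 51 sarcomere and attachment genes none passed, with 8 raised (15.7%) and 1 lowered (1.96%) at an unadjusted p under 0.05, against 1.25% and 3.91% of all genes, and a median of 0.39. *unc-87*, a calponin-related thin filament gene, had 3347, 3022 and 2820 TPM in *daf-2(lf)* and 1136, 2233 and 2283 TPM in the double mutant, against 412 to 595 TPM in wild-type and 545 to 811 TPM in *daf-16(lf)* (interaction 1.01, SE 0.31, unadjusted p = 0.0042). *tnt-2*, a troponin T gene, had an interaction of 1.08 (SE 0.34) and the actin gene *act-1* one of 0.87 (SE 0.30). Double mutant replicate 1 was the lowest library of its group for *unc-87*. Without it the list had a median of 0.10, with 3 raised and 3 lowered. All genes moved down in that fit too, to a median of -0.41 from -0.19, with 129 raised and 1697 lowered of 14717. Carbohydrate metabolism (34 tested) had a median of 0.27, the respiratory chain (45) one of 0.06, the proteasome (33) one of 0.15 and ribosomal proteins (82) one of -0.30, with no gene passing in any of them.

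Neuron markers had a median of -0.80, with 0 of 15 passing and 4 lowered at an unadjusted p under 0.05 (*flp-1* -1.37, *rgef-1* -0.95, *egl-21* -1.34). That is 26.7% of the list, against 3.91% of all genes, whose median was -0.19. Without double mutant replicate 3 the median was -0.49 with 0 lowered, and without double mutant replicate 1 it was -1.38 with 9 lowered. Over all 14717 genes, these fits had medians of -0.03 and -0.41, with 271 and 1697 genes lowered. The double mutant libraries summed to 147, 209 and 318 TPM of these markers. Sperm and pharyngeal muscle markers had medians of -2.05 and -0.88, each with 1 gene lowered at an unadjusted p under 0.05. Body wall muscle markers had a median of 0.24 with 0 of 10 at an unadjusted p under 0.05.

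**Figure D5:**
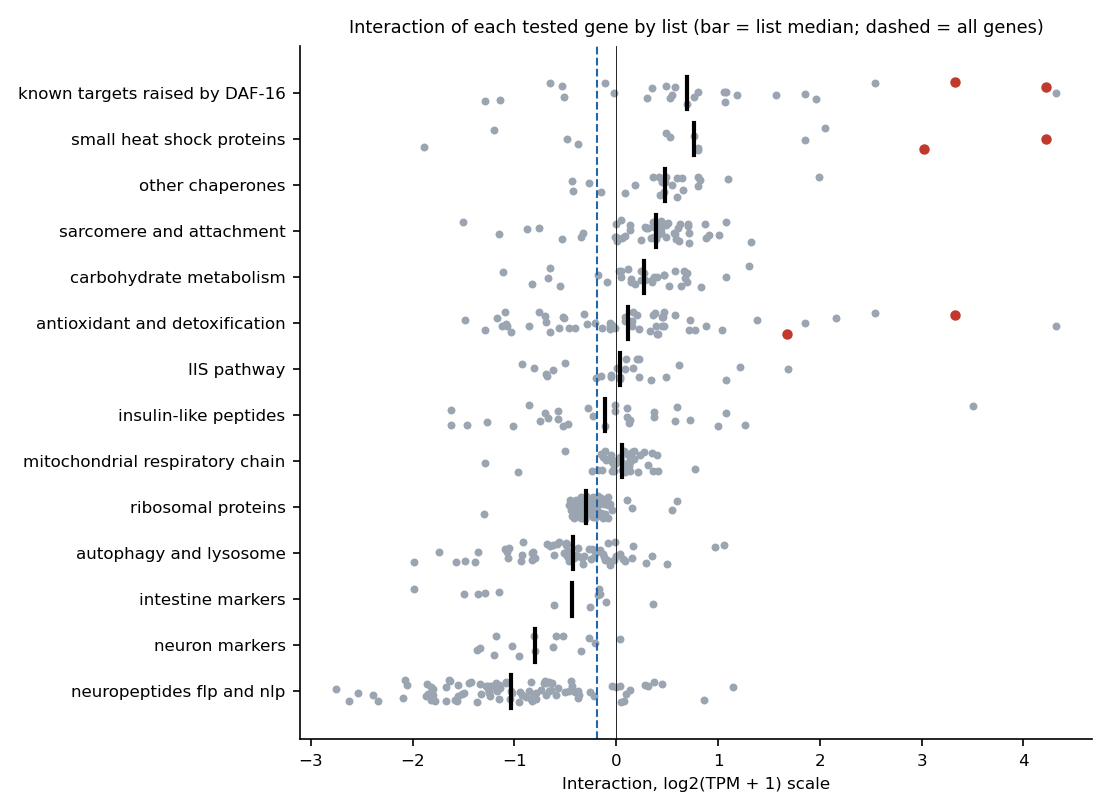
Interaction of each tested gene on the log2(TPM + 1) scale (x axis) by list, with black bars at the list medians, the dashed line at the median of all genes (-0.19) and red points for genes that passed. Of the 14 lists shown, known targets raised by DAF-16 and small heat shock proteins have the medians farthest to the right (0.70 and 0.76), and neuron markers and flp and nlp neuropeptides, a list chosen after its values were seen, those farthest to the left (-0.80 and -1.04); sperm and pharyngeal muscle markers, at -2.05 and -0.88, are not drawn.

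Fatty acid breakdown (52 tested) had 3 genes raised at an unadjusted p under 0.05, *mlcd-1*, the acyl-CoA synthetase gene *acs-2* (1.60, SE 0.71) and *acaa-2* (0.57, SE 0.27), which is 5.77% of the list against 1.25% of all genes, and 1 gene under quantile normalization. Fatty acid synthesis and desaturation (33 tested) had 3 lowered, among them the desaturase gene *fat-2* (-1.13, SE 0.48), which is 9.09% against 3.91% of all genes, and 1 gene without double mutant replicate 3. Of 67 autophagy and lysosome genes, *asp-4*, an aspartic protease gene, was at 1.06 (SE 0.32, unadjusted p = 0.00366) and the cathepsin B-like *cpr-5*, *cpr-4* and *cpr-1* were at -1.74, -1.57 and -1.99. F-box, BTB and MATH genes (153 tested) had 0 raised and 11 lowered, or 7.19%, against 3.91% of all genes. This turned to 6 raised and 1 lowered under quantile normalization, and was 1 raised and 3 lowered without double mutant replicate 3. The background moved as well. Of all 14717 genes, 184 were raised and 576 lowered in the main fit, and 445 and 355 under quantile normalization. Without double mutant replicate 3 these counts were 223 and 271. No gene of these lists passed after adjustment.

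Of the 18 genes that the study labelled among its low IIS muscle results, 8 passed the interaction and all 18 were raised at an unadjusted p under 0.05, with a median of 2.25. A list taken from the study's table of candidate muscle targets, with *rap-3*, which that table sets aside for low reads, and without *tiar-3*, which matched no gene name, had 12 genes tested, with a median of 0.99, 0 passing and 7 raised at an unadjusted p under 0.05. Both lists were chosen on these libraries and are no independent evidence of direction. Of the 6 tested genes that the study labelled at high IIS, *col-33*, a cuticle collagen gene, had 0.587 to 2.34 TPM in *daf-2(lf)*, 0.938 to 1.69 TPM in the double mutant, 0 to 0.340 TPM in wild-type and 2.12, 18, 6.97 and 92.6 TPM in *daf-16(lf)*. Its interaction of 3.63 (SE 1.09, adjusted p = 0.427) did not pass. The median of the 6 was -0.41, and 3 of them were lowered at an unadjusted p under 0.05, *C55C3.3* (-1.89, SE 0.69), *ZK105.1* (-1.46, SE 0.61) and *fpn-1.2* (-0.36, SE 0.17). The study sets *C55C3.3* and *fpn-1.2* aside for low reads, and *fpn-1.2* had at most 0.639 TPM in any muscle cell library. This list was picked on the high IIS libraries, whose difference the interaction subtracts, so its directions are no independent evidence either.

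Of the 24 genes, 11 lay on chromosome V, 9 of them raised (20.4% of genes tested lie on it), and 5 on X, of which 4 were lowered (13.4% of genes tested lie on it). Pseudogenes were 3 of the 24 and 2.87% of genes tested. These counts are descriptions, with no test.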

How the data were processed

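RNA was sequenced from sorted muscle cells (14 libraries) and all cells (10 libraries). The authors quantified reads with Salmon 1.4.0 against WBcel235 and deposited TPM per transcript, which keep no read depth, so counting error is unknown and replicate spread is the only error here. Of 35749 transcripts, 88 matched no gene; the rest were summed to 21982 genes. limma 3.58.1 (R 4.3.3) was fitted to log2(TPM + 1) over 8 groups (residual df 16) with an abundance trend, for genes reaching 1 TPM in 3 or more libraries; p-values were adjusted over 14717 genes (Benjamini-Hochberg) and called under 0.05. The pseudocount understates changes of low genes. No count test was run, since the values are TPM.

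The study describes its replicates as independent, and p-values measure the spread between these libraries. Deviations of same-numbered muscle cell libraries correlated at 0.288 to 0.683 in the 4 pairs at high IIS, and at -0.026, 0.479 and -0.277 at low IIS. The labels give replicate numbers only. Wild-type replicate 2 correlated more with *daf-16(lf)* replicate 3 (0.426) than with its own number (0.288), so pairing at high IIS is an assumption. The main fit has no block. A block at high IIS alone, added after seeing the data, kept 18 of the 24 calls. Low IIS was not taken as paired. Named genes were all genes that passed, study lists, and in other lists the members that passed or the 3 of lowest p. Members and lists were chosen with earlier results of these data known. Alternatives were another pseudocount, 2 filters, 2 scalings, a replicate block, no trend, array weights, muscle cells alone, single transcripts and leaving out libraries. Promoter motifs were not analysed here.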

Additional observations from a re-analysis of the deposited data

Results flagged for a closer look

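The interaction itself is a test of a difference between IIS states, and 24 genes passed it. The raised genes were *F55B12.10* (6.92), *C54F6.15* (5.57), *hsp-12.6* (4.22), *C54F6.6* (3.95), *R04B5.6* (3.54), *R119.3* (3.49), *C04F5.8* (3.45), *sod-5* (3.33), *F08H9.4* (3.02), *F22B7.9* (2.97), *skr-21* (2.57), *F40G12.5* (2.44), *ZK742.4* (2.35), *dmd-10* (2.15), *gst-31* (1.68) and *M05D6.10* (1.34). The lowered genes were *C43C3.4* (-2.98), *R04B3.3* (-2.77), *Y51H7C.13* (-2.59), *Y38F2AL.12* (-2.37), *C14C6.12* (-2.33), *Y17D7B.7* (-2.10), *F56C3.10* (-1.80) and *F54F7.6* (-1.33).

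In 11 of 43 groups of 4 libraries, 1 library lay far from the other 3 by Dixon's criterion. In 7 of the 11 the other 3 libraries were at 0, which meets the criterion by construction. Of the other 36 groups 4 met it, where chance flags about 1 in 20 groups. In *daf-16(lf)* replicate 4 these were *skr-21* (1.44 TPM), *M05D6.10* (1.26 TPM), *sod-5* (0.942 TPM), *Y38F2AL.12* (0.279 TPM) and *C43C3.4* (0.197 TPM), and in *daf-16(lf)* replicate 1 *hsp-12.6* (0.355 TPM). In wild-type they were *skr-21* in replicate 4 (2.12 TPM), *F40G12.5* in replicate 3 (0.0328 TPM) and, in replicate 2, *C54F6.15* (0.527 TPM), *Y38F2AL.12* (0.278 TPM) and *C54F6.6* (0.0946 TPM).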

How the results depend on the processing

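Of the 24 genes, 7 passed in every setting in which they were tested (*C54F6.15*, *C54F6.6*, *dmd-10*, *F55B12.10*, *R119.3*, *sod-5*, *F40G12.5*), 8 passed in 15 or fewer of 27 alternative settings, and 0 reversed. In muscle cells alone 24 genes passed, 17 of them shared with the main fit. The calls lost there were *gst-31*, *hsp-12.6*, *skr-21*, *F22B7.9*, *Y51H7C.13*, *M05D6.10* and *F56C3.10* (adjusted p of 0.0553 to 0.19). With no filter 22 passed, 18 of them shared, with *hsp-12.6*, *skr-21* and *R04B3.3* among those lost. Without the wild-type-labelled all cells pair 30 passed (22 raised, 8 lowered), 23 of them shared. The count was 14 to 35 with 1 library left out (raised 10 to 27, lowered 3 to 20), lowest without *daf-2(lf)* replicate 3 and highest without *daf-2(lf)* replicate 2. Of the 24, 12 passed in all 14 of these fits. Array weights gave 4821 genes, 338 raised and 4483 lowered. Quantile normalization gave 27 raised, median-of-ratios scaling 5 lowered and no abundance trend 5 lowered. Without replicate 4 of wild-type and *daf-16(lf)*, chosen after seeing the data, 14 passed, 3 of them lowered. The median over all genes moved to 0.04 under quantile normalization and -0.08 under median-of-ratios scaling.

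With the replicate block, 26 genes passed (16 raised, 10 lowered), 14 of them shared with the fit without it. With the replicate block at high IIS alone, where same-numbered libraries were assumed to be paired, 19 passed (15 raised, 4 lowered), 18 of them shared. This block changed no call among the 24 other than the 6 given with their values.

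*daf-16* was at -0.00 (pseudocount 0.1), -0.16 (array weights), -0.10 (without both replicates 4), -3.62 (single transcripts) and -0.21 to 0.40 with 1 library left out. *daf-2* was at 0.33 (quantile), 0.14 (median-of-ratios) and -0.51 to 0.20 with 1 library left out. *rpn-8* was at -0.02 (array weights), *inx-9* at -0.87 to 0.02 with 1 library left out, *ncx-1* at -0.50 and *dod-22* at 0.07 (single transcripts). The cause was not tested. TPM give no depth, which limits statements on genes near 0. The promoter motif alternative was not run.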
